A study of Mus musculus with 16 samples.

Results

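The core histone genes of the mouse histone clusters were followed through 4 oocyte genotypes. Members were the probe sets whose platform annotation gives exactly 1 gene symbol, with that symbol naming a clustered H2A, H2B, H3 or H4 gene. The rule found 25 probe sets of 24 genes among 21218 probe sets with 1 symbol, in a table of 35556. They comprised 6 H2A, 10 H2B, 3 H3 and 6 H4 probe sets, and H2bc4 was read by 2 of them. Of these probe sets 5 lie on chromosome 3 and 20 on chromosome 13.

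The arrays were Affymetrix Mouse 1.1 ST chips, which read a transcript through short probes summarised as a probe set. RNA came from oocytes of 12-day-old C57BL/6 mice, 80 oocytes per sample, and was amplified before labelling. The 4 groups held 4 biological replicates each. Mice were either wild type, lacked Hdac1 in the oocyte, lacked Hdac2 there, or lacked both, the last being called the double knockout. The knockouts combined conditional loss-of-function alleles of Hdac1, Hdac2 or both with a Zp3-Cre transgene, whose promoter is active in growing oocytes. The labels do not say whether the wild-type mice carried the floxed alleles or the transgene. The deposited values were taken as log2, a base inferred from their range of 2.07 to 12.89, and every fold change rests on that inference.

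HDAC1 and HDAC2 are closely related deacetylases that remove acetyl groups from histone tails. Core histone proteins form the octamer around which DNA is wrapped, and their clustered genes supply most of the histone made during DNA replication. Transcripts of these genes usually end in a stem-loop in place of a poly(A) tail. A growing oocyte does not replicate its DNA and stores histone transcripts and proteins for the embryo.

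Many clustered copies are nearly identical, which limits what a short probe can tell apart. Of 57 protein-coding core histone genes of the clusters in the RefSeq table, 24 had a probe set of their own and 33 did not. Another 38 probe sets carried several symbols and are described separately. Whether probes of a 1-symbol set also bind transcripts of a sister copy was not tested. The amplification was also not compared with another method, and how it treats transcripts without a poly(A) tail was not tested.

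H2bc1, with the largest rise in the double knockout, and H2ac6, with the largest fall, each stand in a divergent pair of an H2A and an H2B gene: H2ac1 and H2bc1 rose, and H2ac6 and H2bc4 fell. Each pair shares the DNA between its starts. The annotated starts of H2ac1 and H2bc1 are 281 bases apart, and those of H2ac6 and H2bc4 are 240 bases apart. The 250 bases before the start of H2ac1 (GRCm38.p6, chr13:23934187-23934436, plus strand) and of H2ac6 (GRCm38.p6, chr13:23683960-23684209, minus strand) are therefore shown, from RefSeq, with capitals marking 3 motifs on either strand. They are the CCAAT box, the TATA element with the letters TATAA, and the octamer with the letters ATTTGCAT.
H2ac1: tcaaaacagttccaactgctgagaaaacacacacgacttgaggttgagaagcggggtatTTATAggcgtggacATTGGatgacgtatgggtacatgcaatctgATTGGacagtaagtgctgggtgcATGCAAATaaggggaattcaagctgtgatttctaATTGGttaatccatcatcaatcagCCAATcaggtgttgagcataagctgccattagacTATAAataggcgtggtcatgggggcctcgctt
H2ac6: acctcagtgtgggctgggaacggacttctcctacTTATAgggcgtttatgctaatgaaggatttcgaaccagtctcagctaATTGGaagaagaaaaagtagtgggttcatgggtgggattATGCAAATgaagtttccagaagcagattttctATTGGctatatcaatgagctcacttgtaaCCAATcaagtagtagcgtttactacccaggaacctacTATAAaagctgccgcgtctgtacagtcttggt
Both windows hold an octamer between TATA elements that face opposite ways. The far end of the H2ac6 window runs past the start of H2bc4. Windows of this length were found for 20 of the 24 member genes. The octamer was in 9 of those 20 and in 1.6% of all 32851 windows. It was in 4 of 6 H2A and 5 of 7 H2B windows and in no window of the 2 H3 and 5 H4 genes. CCAAT was in 16 of the 20 against 33.8% of all windows, and TATAA in 14 against 22.8%. The octamer was also before H2ac4, H2ac8, H2bc3, H2bc8, H2bc14 and H2bc18, none of which was called in the double knockout. Of these, H2ac8 and H2bc8 are neighbours in gene order and changed by −0.001 and −0.22. H2ac4 and H2bc3, also neighbours, changed by −0.08 and 0.11. A link between the octamer and the changes was not tested. These are descriptions of letters, not of binding.

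The H4 members are set beside each other because they share upstream letters and differed in their calls. The 100 bases before the start are shown for H4c6 (chr13:23551669-23551768, minus strand), H4c9 (chr13:22041363-22041462, minus strand), H4c4 (chr13:23581468-23581567, plus strand) and H4c3 (chr13:23698459-23698558, minus strand), all in GRCm38.p6 from RefSeq. Capitals mark the letters GGTCCG of H4 promoters, the CCAAT box and the TATA element, on either strand.
H4c6: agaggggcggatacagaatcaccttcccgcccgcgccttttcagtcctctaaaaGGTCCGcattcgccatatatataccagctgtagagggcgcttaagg
H4c9: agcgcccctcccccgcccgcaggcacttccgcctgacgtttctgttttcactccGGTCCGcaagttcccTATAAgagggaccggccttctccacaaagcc
H4c4: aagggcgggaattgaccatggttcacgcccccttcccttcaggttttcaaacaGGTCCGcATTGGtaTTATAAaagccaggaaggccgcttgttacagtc
H4c3: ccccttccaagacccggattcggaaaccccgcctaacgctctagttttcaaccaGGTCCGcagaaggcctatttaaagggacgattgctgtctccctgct
GGTCCG began 46 bases before the start in H4c3, H4c6 and H4c9 and 47 bases before it in H4c4. Within 250 bases it was in 4 of 5 H4 windows, in 1 of 7 H2B windows and in 6.72% of all windows. H4c3 carries the letters and was not called, so the match was shared by called and uncalled members. H4c8, whose window lacks the letters, was not called either, and H4c14 had no window. A link between the letters and the calls was not tested.

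The labels were first set against the targeted genes. The brighter Hdac1 probe set averaged 9.28 ± 0.050 (SD, n = 4) in wild-type arrays and 6.61 ± 0.19 without Hdac1. It averaged 9.64 ± 0.11 in the arrays labelled Hdac2 knockout and 7.66 ± 0.096 in the double knockout. There the double knockout was 1.04 above the Hdac1 knockout (limma adjusted p = 5.22e-08). The arrays labelled Hdac2 knockout were 0.36 above wild type (limma adjusted p = 0.0172). The other Hdac1 probe set averaged 8.90, 6.19, 9.25 and 7.27 in the same order of groups. The Hdac2 probe set averaged 11.09 ± 0.068, 11.13 ± 0.054, 10.99 ± 0.031 and 10.87 ± 0.058 in the same order. It therefore did not check the Hdac2 deletion, and no source used here places its probes relative to the deleted part. The medians of the 16 arrays ran from 4.46 to 4.59 and were not even between genotypes. Those of the double knockout, 4.54 to 4.59, were above all others, which reached 4.51. Over the probe sets with 1 symbol the double-knockout medians were 5.32 to 5.35, and the others reached 5.26. Results after centring each array on its median are therefore given below for several changes.

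In the Hdac1 knockout no core histone member was called against wild type at an adjusted p under 0.05 (limma, Benjamini-Hochberg), where 0.0707% of the probe sets tested were called. At an unadjusted p under 0.05 there were 4. The share of the probe sets tested at that unadjusted threshold was not counted, here or below. The members' changes ran from −0.74 for H2ac6 to 0.41 for H4c3, with a median of 0.01. Without wild-type replicate 2 the H4c3 change was −0.017. In the arrays labelled Hdac2 knockout 1 of 25 members was called, against 5.59% of the probe sets tested (2.74% lower), and the median change was 0.05. That member was H2ac6, which fell by 0.94 ± 0.21 (SE, adjusted p = 0.0165). Without wild-type replicate 1 or replicate 4 its adjusted p was 0.0503 or 0.0536. H2bc1 was 0.42 ± 0.13 higher there with an adjusted p of 0.0857, and the 4 arrays lay above those of wild type. Between the 2 single knockouts no member was called by limma (1 at an unadjusted p under 0.05), where 5.78% of the probe sets tested were.

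In the double knockout 10 of 25 members were called, 7 higher and 3 lower than wild type (5 and 4 after centring each array on its median, 6 and 4 after quantile normalization). That is 40%, near the 38.3% of the probe sets tested that were called. By direction the background was 18.5% higher and 19.8% lower. The median change of the members was 0.13, and that of the probe sets tested was −0.01. Of the 10, 5 passed the 1.4-fold limit named in the design text. Over the 21218 probe sets tested, 3472 were called and passed it. By class, 2 of 6 H2A members rose and 1 fell, 1 of 10 H2B members rose and 2 fell, 0 of 3 H3 members were called by limma (1 at an unadjusted p under 0.05), and 4 of 6 H4 members rose. Of the 15 members not called, the changes ran from −0.30 to 0.59.

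**Figure D1:**
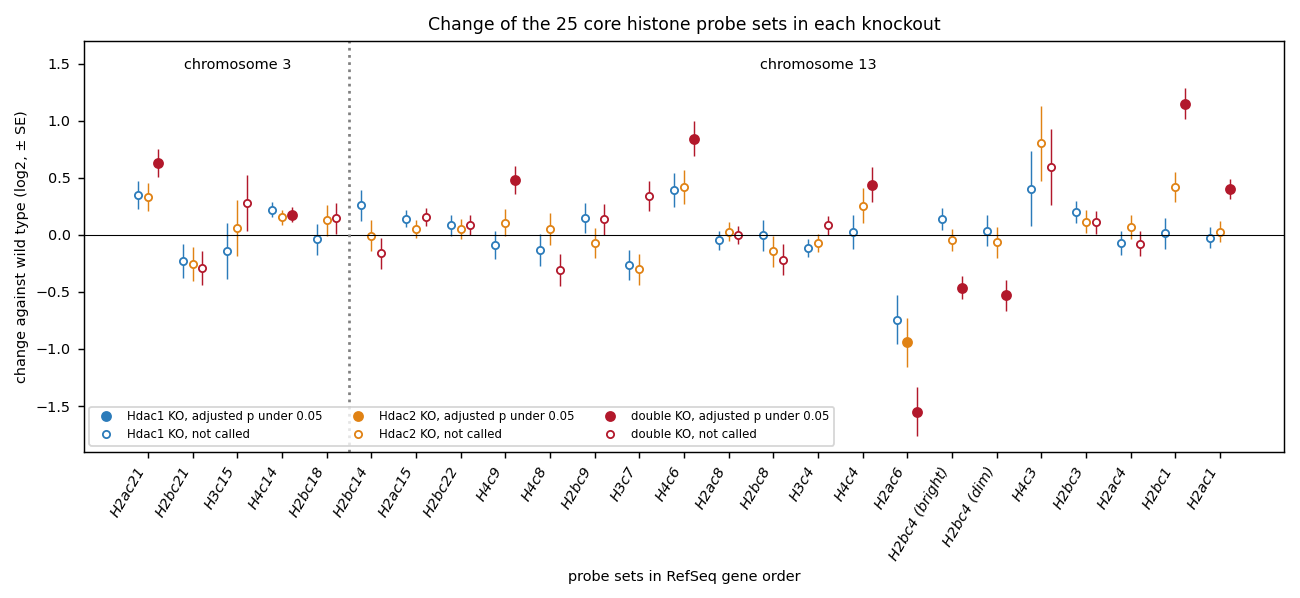
Change of each of the 25 core histone probe sets against wild type (log2, points with ± SE bars from limma), in RefSeq gene order with chromosome 3 to the left of the dotted line; filled points have an adjusted p under 0.05. The 10 filled double-knockout points stand above and below 0, with H2bc1 at 1.15 and H2ac6 at −1.55.

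The largest rise was that of H2bc1, which encodes the H2B variant of the male germ line that is also found in oocytes. Its wild-type arrays read 7.85, 7.78, 7.79 and 7.85. The Hdac1 knockout read 7.92, 7.96, 7.41 and 8.02, and the arrays labelled Hdac2 knockout read 8.51, 8.13, 8.26 and 8.04. The double knockout read 8.95, 9.27, 8.93 and 8.71. Every double-knockout array lay above the other 12. The change was 1.15 ± 0.13 (SE), or 2.22-fold (adjusted p = 3.56e-06).

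H2ac1, its divergent neighbour, encodes the matching H2A variant of the germ line. It read 9.84, 9.84, 9.95 and 9.78 in wild type and 10.42, 10.30, 10.14 and 10.15 in the double knockout. The single knockouts read 9.97, 9.87, 9.72 and 9.75 for Hdac1 and 9.94, 9.65, 10.10 and 9.83 for Hdac2. The double-knockout arrays again lay above the other 12. H2ac1 rose by 0.40 ± 0.091 (1.32-fold, adjusted p = 0.00192). Among the 10 tested non-member genes around this pair 1 was higher and 4 were lower in the double knockout, with changes from −0.78 to 1.21. Over the probe sets tested 18.5% were higher and 19.8% lower.

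H2ac6, a replication-type H2A gene, showed the largest fall. It read 6.31, 5.92, 5.91 and 6.34 in wild-type arrays, 4.79, 5.48, 5.92 and 5.31 without Hdac1, 5.68, 4.98, 4.96 and 5.09 in the arrays labelled Hdac2 knockout, and 4.52, 4.71, 4.21 and 4.84 in the double knockout. The double-knockout arrays lay below those of wild type and of Hdac2, and overlapped 1 array of Hdac1. The change was −1.55 ± 0.21, a level of 34.2% of wild type (adjusted p = 1.93e-05). The change against wild type in the Hdac1 knockout was −0.74, with an adjusted p of 0.31.

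H2bc4, an H2B gene divergent from H2ac6, was lower on both of its probe sets. The brighter one read 10.53, 10.37, 10.37 and 10.55 in wild type and 9.83, 10.04, 9.99 and 10.11 in the double knockout. The Hdac1 knockout read 10.47, 10.76, 10.81 and 10.32 there, and the arrays labelled Hdac2 knockout 10.39, 10.34, 10.53 and 10.37. Each double-knockout array was below the other 12. The fall was −0.46 ± 0.098 on the log2 scale (72.6% of wild type, adjusted p = 0.00109).

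The dimmer H2bc4 probe set read 5.0, 4.82, 4.76 and 5.10 in wild-type arrays, 4.57, 5.25, 5.24 and 4.78 without Hdac1, 4.84, 4.61, 4.97 and 5.0 in the arrays labelled Hdac2 knockout, and 4.28, 4.48, 4.31 and 4.49 in the double knockout. The last group was again below the rest. The change was −0.53 ± 0.14 (adjusted p = 0.00529). Among the 10 tested non-member genes around H2ac6 and H2bc4, 3 were higher and 2 lower, with changes from −0.50 to 1.21. Over the probe sets tested 18.5% were higher and 19.8% lower. The 1.21 is Trim38, which is also counted around H2ac1 and H2bc1. The linker histone genes H1f1, H1f2, H1f3 and H1f6 are among the 10.

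H2ac21, an H2A gene of chromosome 3, read 7.85, 7.81, 7.40 and 7.52 in wild type and 8.39, 8.41, 8.39 and 7.91 in the double knockout. The single knockouts ran from 7.86 to 8.07 for Hdac1 and from 7.79 to 8.13 for Hdac2. The groups of wild type and double knockout did not overlap. It rose by 0.63 ± 0.12 (1.55-fold, adjusted p = 0.000548), and by 0.75 without double-knockout replicate 4.

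**Figure D2:**
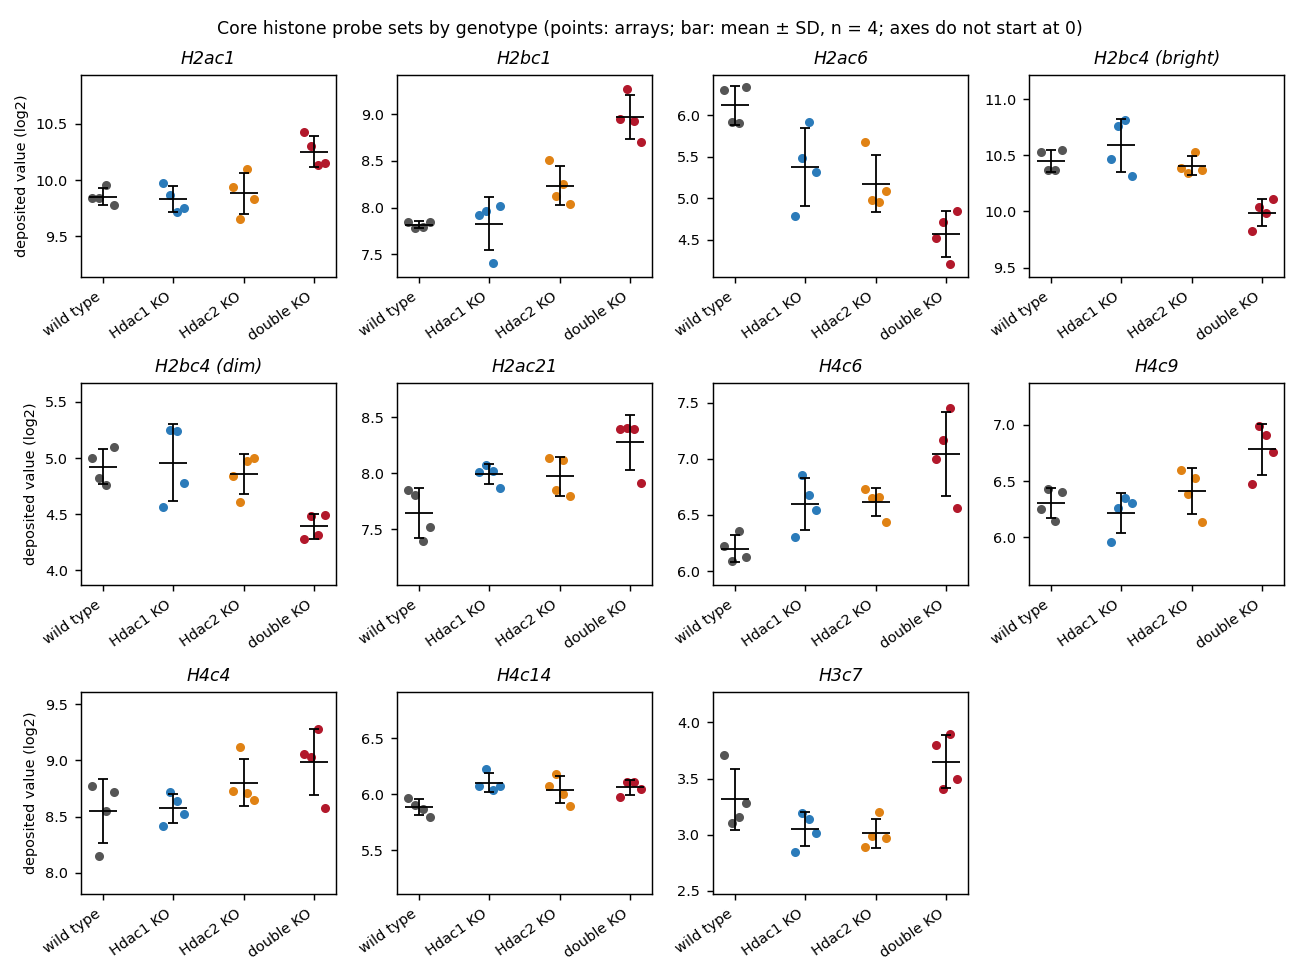
Deposited log2 values of the 11 probe sets described by array, for 4 genotypes (points are arrays, the horizontal bar and whiskers are mean ± SD, n = 4, and the axes do not start at 0). The double-knockout points of H2bc1 and H2ac1 lie above all other arrays and those of both H2bc4 probe sets below them.

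The H4 genes, which encode the same protein from many copies, had 4 members called of 6, all higher, where 38.3% of the probe sets tested were called and 18.5% were higher. After centring 2 of these calls, H4c4 and H4c14, were lost. H4c6 read 6.23, 6.09, 6.36 and 6.13 in wild type and 7.0, 7.17, 7.45 and 6.56 in the double knockout. It rose by 0.84 ± 0.15 (1.79-fold, adjusted p = 0.000232), with no overlap. Its single knockouts were at 6.31 to 6.86 for Hdac1 and 6.44 to 6.73 for Hdac2.

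H4c9 read 6.25, 6.43, 6.14 and 6.40 in wild type and 6.48, 6.99, 6.91 and 6.76 in the double knockout. The rise was 0.48 ± 0.12 (1.39-fold, adjusted p = 0.00445), and the groups did not overlap. H4c4 read 8.77, 8.15, 8.55 and 8.72 against 9.06, 9.03, 9.28 and 8.58, so its arrays overlapped. Its change was 0.44 ± 0.15 (adjusted p = 0.0304). The adjusted p was 0.0566 to 0.114 when double-knockout replicate 1, 2 or 3 or wild-type replicate 2 or 3 was left out, and 0.0653 after centring each array on its median.

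H4c14 read 5.97, 5.90, 5.87 and 5.80 against 5.98, 6.11, 6.11 and 6.05. In the Hdac1 knockout every array lay above wild type, with a change of 0.22 ± 0.066 (adjusted p = 0.336). The arrays labelled Hdac2 knockout changed by 0.15 ± 0.066 (adjusted p = 0.211). The double knockout differed from these groups by −0.044 and 0.022, so its level was near theirs. The H4c14 change from wild type in the double knockout was the smallest of those called, at 0.18 ± 0.066 (adjusted p = 0.0435). It was no longer called without any 1 of replicates 2, 3 and 4 of either group, with adjusted p from 0.0659 to 0.126. After centring its change was 0.088 (adjusted p = 0.29), and after quantile normalization 0.13 (adjusted p = 0.116). H4c3 and H4c8 were not called, at 0.59 ± 0.33 and −0.30 ± 0.14. In H4c3 wild-type replicate 2 read 5.94 where the others read 7.58 to 7.71, and without it the change was 0.17 ± 0.23 (adjusted p = 0.637).

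The 3 H3 members were dim, meaning that no group mean reached 5.27, the median of the probe sets tested. H3c7 was the one with the smallest adjusted p, 0.0555. It read 3.71, 3.11, 3.15 and 3.28 in wild-type arrays, 2.85, 3.19, 3.14 and 3.02 without Hdac1, 2.89, 2.98, 3.20 and 2.97 in the arrays labelled Hdac2 knockout, and 3.80, 3.41, 3.90 and 3.50 in the double knockout. The double-knockout arrays overlapped those of wild type and lay above both single knockouts. H3c7 became called without wild-type replicate 1 (adjusted p = 0.00487), double-knockout replicate 2 (0.0257) or double-knockout replicate 4 (0.0455). H3c4 changed by 0.08 and H3c15 by 0.28, neither called. Over the 25 members 11 were dim.

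The double knockout was then compared with each single knockout. Against Hdac1 knockout 10 of 25 members were called, 6 higher and 4 lower, where 38.7% of the probe sets tested were called (18.7% higher and 20.1% lower). Against the arrays labelled Hdac2 knockout 8 were called, 5 higher and 3 lower, beside 33.7% of the probe sets tested (16.8% higher and 16.9% lower). H2bc1 was 1.14 ± 0.13 above Hdac1 (adjusted p = 3.91e-06) and 0.73 ± 0.13 above Hdac2 (adjusted p = 0.00044). H3c7 was 0.60 ± 0.13 and 0.64 ± 0.13 above them (adjusted p = 0.0015 and 0.00118). The brighter H2bc4 probe set was lower by −0.60 ± 0.098 and −0.42 ± 0.098 (adjusted p = 0.000104 and 0.00316). H2bc14, an H2B gene chosen after its values were seen, was called against Hdac1 alone (−0.42 ± 0.14, adjusted p = 0.0206). Without double-knockout replicate 3, the count against Hdac2 was 5.

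The interaction is the double-knockout change less both single-knockout changes, in log2 units. It was called for 4 of 25 members, 3 above and 1 below the sum, where 23.3% of the probe sets tested were called (11.7% above and 11.6% below). H3c7 departed by 0.90 ± 0.19 (adjusted p = 0.00216), H2bc1 by 0.72 ± 0.19 (adjusted p = 0.0113) and the brighter H2bc4 probe set by −0.55 ± 0.14 (adjusted p = 0.00786). H2ac1 departed by 0.40 ± 0.13 (adjusted p = 0.0336). Its adjusted p was 0.0505 to 0.0689 without 9 of the 16 arrays in turn (wild-type replicates 1, 2 and 3, Hdac1 replicates 3 and 4, Hdac2 replicates 2 and 4, double-knockout replicates 1 and 2) and 0.103 after centring. H4c9, the fifth by adjusted p, departed by 0.46 ± 0.17 (adjusted p = 0.0639). H2ac6 did not depart measurably, since its single changes sum to −1.68 beside −1.55 in the double knockout (interaction adjusted p = 0.803).

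**Figure D3:**
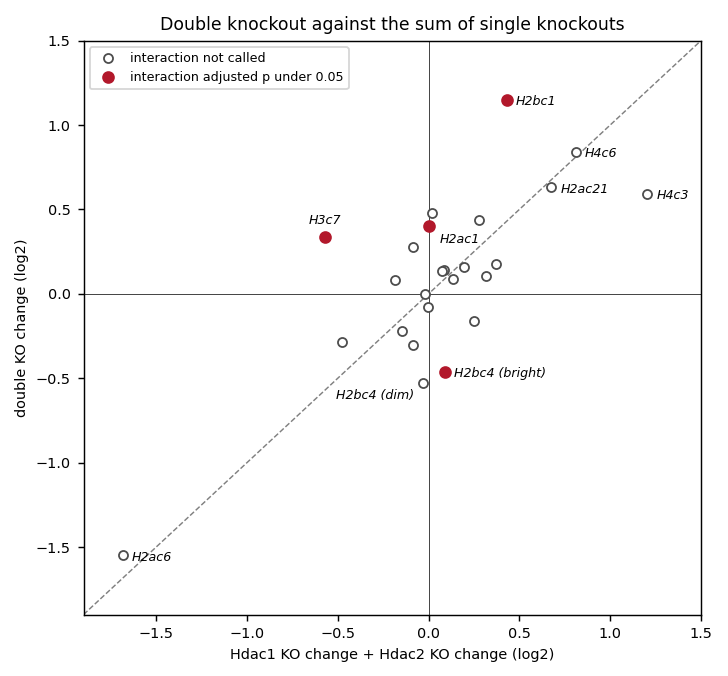
Double-knockout change of each of the 25 members (vertical, log2) against the sum of its changes in the single knockouts (horizontal, log2), with the dashed line at equality; filled points have an interaction adjusted p under 0.05. All changes share the wild-type arrays. H3c7, H2bc1 and H2ac1 lie above the line, the brighter H2bc4 probe set below it, and H2ac6 close to it.

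The 38 probe sets with several symbols were examined after the members' values had been seen, in a fit over the whole table. They share copies and are not independent of each other. The 38 hold 36 distinct series of values, with 7 among the 8 H2B sets and 5 among the 6 H4 sets. Identical sets are each included in the counts. In the double knockout 30 of 38 were higher and 0 lower, where 27.8% of the table was called, 14.2% was higher and 13.6% lower. These shares were not matched for brightness, and the class averages below lie above the array medians of 4.46 to 4.59. Among members, the 14 that were not dim had 7 higher and 2 lower calls, and the 11 dim ones had 0 and 1. H2A sets were higher in 13 of 13 with a median of 0.49, H3 sets in 10 of 10 with a median of 0.84, and H4 sets in 5 of 6 with a median of 0.56. The 1 set naming both H2A and H3 genes was also higher. H2B sets were called in 1 of 8, with a median of −0.16, and the called one also names the linker histone gene H1f4. After centring 0 H2B sets were higher and 2 lower, and after quantile normalization limma called none, while the H2A, H3 and H4 counts were as before. No several-symbol set was called in either single knockout, where 0.0619% and 2.87% of the table were. At an unadjusted p under 0.05 limma gave 10 in the Hdac1 knockout and 18 in the arrays labelled Hdac2 knockout. The share of the table at that unadjusted threshold was not counted, and sets sharing copies are not separate results.

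The mean of the 10 H3 sets was 6.75, 6.69, 6.81 and 6.94 in the wild-type arrays and 7.49, 7.80, 7.78 and 7.41 in the double knockout. The 13 H2A sets averaged 8.99, 9.01, 8.73 and 8.79 against 9.50, 9.50, 9.31 and 9.30. The 6 H4 sets averaged 8.83, 8.70, 8.65 and 8.86 against 9.21, 9.41, 9.36 and 9.03. In these 3 classes each double-knockout array was above each wild-type array. For H2A and H3 it was also above each single-knockout array. For H4 the single knockouts lay above wild type as well. They read 8.94, 8.91, 8.99 and 8.90 for Hdac1 and 9.19, 9.06, 9.08 and 8.89 for Hdac2, and the latter overlapped the double knockout.

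The 8 H2B sets averaged 8.17, 8.28, 7.84 and 8.01 in wild type and 8.07, 7.99, 7.91 and 7.77 in the double knockout, which overlap. The Hdac1 knockout averaged 8.29, 8.40, 8.46 and 8.11. Against it, 7 of 8 H2B sets were lower in the double knockout, where 28.7% of the table was called and 14.2% was lower. Against the arrays labelled Hdac2 knockout limma called 0 of 8 lower (also 0 at an unadjusted p under 0.05) and 1 higher, where 24.5% of the table was called, 12.7% higher and 11.9% lower. The interaction was called below the sum for 3 of 8 H2B sets and above it for 7 of 10 H3 sets, where 16% of the table was called (8.51% above and 7.54% below). It was called by limma for 0 of 13 H2A sets and 0 of 6 H4 sets (1 and 0 at an unadjusted p under 0.05).

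**Figure D4:**
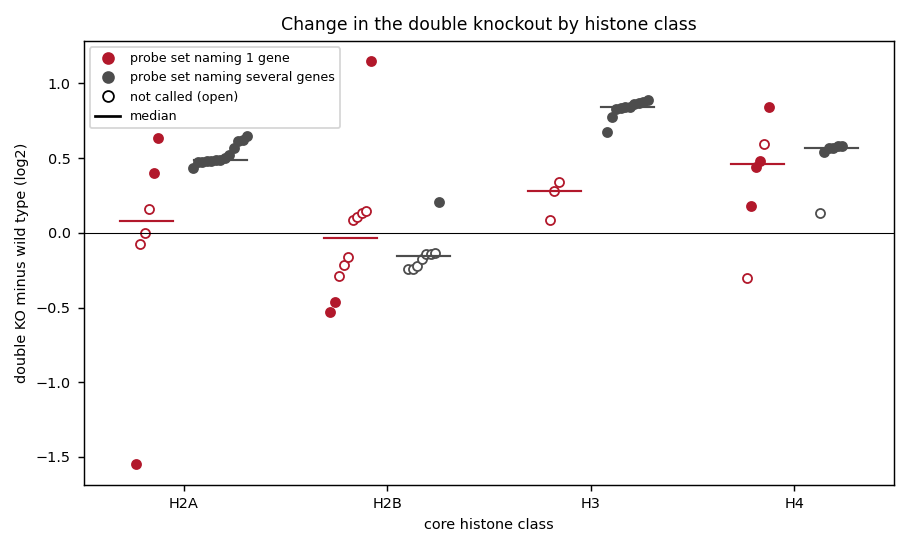
Double-knockout change against wild type (log2) by histone class, for probe sets naming 1 gene (red) and several genes (grey); open points have an adjusted p of 0.05 or more, lines are class medians, and the set naming H2A and H3 genes is not drawn. The grey H2A and H3 points all lie above 0 with medians of 0.49 and 0.84, and the grey H2B median is −0.16.

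The other genes of histone supply were read from lists. Among 25 genes of histone transcription and 3′ end processing, 9 rose and 9 fell in the double knockout, with a median of −0.02. Npat, a coactivator of clustered histone genes, rose by 0.68 ± 0.074 (adjusted p = 1.62e-06). Clp1 and Ncbp1, of mRNA 3′ end cleavage and the cap-binding complex, rose by 1.14 and 1.18 (adjusted p = 5.73e-09 and 2.06e-08). Of those that fell, Coil, the scaffold protein of Cajal bodies, changed by −0.69 (adjusted p = 7.87e-06) and Upf1, a helicase of RNA decay, by −0.43 (adjusted p = 7.82e-05), both chosen after their values were seen. Slbp, the protein that binds the histone stem-loop and was chosen after its value was seen, was 0.02 from wild type and not called (adjusted p = 0.809).

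Among 24 histone chaperones 4 rose and 7 fell, with a median of −0.07. Asf1b, a chaperone of H3 and H4, rose by 0.68 and Anp32a fell by 0.58. Among 20 histone variants and linker histones 7 rose and 3 fell, with a median of 0.12. These included the linker H1f1 at 0.92 and the H2A variants H2az2 at 0.83, H2ax at 0.64 and H2az1 at 0.46. The 3 that fell, also chosen after their values were seen, were the linkers H1f3 at −0.50 and H1f7 at −0.22 and the H2A variant Macroh2a1 at −0.23. Among 26 S phase genes 10 rose and 6 fell, with a median of 0.05, and Ccne1, which encodes cyclin E1, rose by 2.64 ± 0.13 (adjusted p = 9.87e-11). These shares stand beside the 18.5% higher and 19.8% lower of the probe sets tested, which were not matched for brightness. Each listed gene was read by its brightest probe set. In wild type 0 of the 25 processing genes, 1 of the 24 chaperones and 0 of the 26 S phase genes were dim. Of the 20 variants and linkers 7 were dim.

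Markers of other ovarian cells were read beside these results. The summed signal of 17 granulosa markers was 1168 to 1267 in wild type and 818 to 844 in the double knockout, while their mean log2 value was 4.51 to 4.63 and 4.58 to 4.78 and their median change 0.07. Of the 17, 15 were dim in wild type, 5 rose and 2 fell. The defining markers Fshr, Amh and Foxl2 were among the dim ones. They were at 4.10, 3.45 and 4.71 in wild type and 4.13, 3.43 and 4.78 in the double knockout. At such levels a change is hard to measure, so these values do not speak for granulosa cell content. The changes of the 17 ran from −1.07 for Nr5a2, which was not dim, to 0.74. The sum of 11 blood, immune and endothelial markers was 623 to 684 in wild type and 346 to 433 in the double knockout. Of these, 2 were up and 2 down, with changes from −1.37 for Pecam1 to 0.76. Tek changed by −0.81, while Ptprc and Cdh5 were at 3.78 and 3.56 in wild type and 3.85 and 3.55 in the double knockout. Ptprc and Cdh5 were dim in both groups, so their values do not speak for the content of such cells either. The mean log2 value of these 11 was 4.54 to 4.61 and 4.38 to 4.54, with a median change of −0.01.

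The 12 theca and stroma markers, all dim in wild type, summed to 192 to 208 and 209 to 223, with 2 up. The 17 oocyte markers summed to 51825 to 52436 in wild type and 51599 to 52374 in the double knockout, with 1 up and 3 down. The part of these markers in the histone results was not tested. In pooled oocytes fewer cells of a type and less RNA per cell cannot be told apart.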

How the data were processed

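RNA from 16 oocyte samples was measured on single-colour arrays. The deposited table gives 1 log2 value per probe set and array; the base was inferred from the values, MAS5 (version not given) is named per the submitters' processing notes, and GeneSpring v7, SAM and EASE per the labels' design text. The values were used as deposited. Groups and replicate numbers came from the labels. Genes were named through the platform annotation. In R 4.3.3, limma 3.58.1 (lmFit, contrasts.fit, eBayes; 12 residual degrees of freedom) was fitted to 21218 probe sets with 1 symbol, and 2-sided p-values were adjusted over them by Benjamini-Hochberg, with calls at 0.05. The code was checked on simulated data. The number of arrays limits the precision.

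Named members were up to 4 called in each direction per class in the double knockout, those called in a single knockout, and the 5 with the smallest interaction p; each list gave up to 4 genes, and a listed gene with several probe sets was represented by its brightest. The members and lists were chosen with earlier results of these data known. Alternatives were array centring, quantile normalization, a filter on dim probe sets, all probe sets, a variance trend, only the groups compared, a replicate block and leaving out each array. Promoter windows were RefSeq's (GRCm38.p6), matched by symbol; H2bc21, H2bc4, H3c7 and H4c14 had none.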

Additional observations from a re-analysis of the deposited data

Results flagged for a closer look

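A single array stood apart from the other 3 of its group in 6 of the 100 groups formed by the 25 members and 4 genotypes; chance alone flags about 1 in 20. For H4c3, wild-type replicate 2 read 5.94 against 7.58 to 7.71. For H2ac21, double-knockout replicate 4 read 7.91 against 8.39 to 8.41. For H2bc1, Hdac1-knockout replicate 3 read 7.41 against 7.92 to 8.02; without it the change labelled Hdac2 knockout was 0.42 with an adjusted p of 0.0364. H3c15 read 3.93 and H2ac15 read 4.30 in Hdac1-knockout replicate 1, against 4.31 to 4.36 and 4.01 to 4.06. H2bc14 read 7.82 in wild-type replicate 1 against 7.47 to 7.52.

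By limma's interaction test the effect of one deletion was called different with the state of the other gene for 4 of 25 members. Over the probe sets tested the share was 23.3%. The members were H3c7 (0.90), the brighter H2bc4 probe set (−0.55), H2bc1 (0.72) and H2ac1 (0.40). H3c7 was dim. H2ac1 lost its call in 9 of 16 fits without 1 array, after centring, and with all probe sets tested (limma adjusted p = 0.0529).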

How the results depend on the processing

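No called change reversed. Of 740 values recomputed for named members, 696 kept their side of the threshold, 30 lost the call and 14 gained it; 26 changed sign, with 0 of these called under either setting. The members called in the double knockout numbered 9 to 10 under other settings and 8 to 11 without 1 array, against 10. In the arrays labelled Hdac2 knockout the count was 3 when only the groups compared were fitted, as H2bc1 and H4c6 were also called, and 0 to 1 without 1 array. Against Hdac2 the double knockout had 5 to 9 without 1 array, and the interaction 3 to 5. Counts in the Hdac1 knockout and between single knockouts stayed at 0. The several-symbol sets, whose alternatives were chosen after seeing the data, numbered 29 to 31 called under other settings against 30, with 29 higher and 2 lower after centring.

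The replicate numbers did not pair the arrays: same-numbered deviations correlated at −0.148 to 0.0866, and 2 of 16 arrays correlated best with their own number. With the replicate block the counts were 0, 1 and 10 against wild type (Hdac1, Hdac2, double), 10 and 9 for the double knockout against Hdac1 and Hdac2, 0 between the single knockouts and 4 for the interaction, and 29 for the several-symbol sets. Dim probe sets leave 11 of the 25 members near the lower range of the values, where a change is hard to measure.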
